A study of Homo sapiens with 18 samples.

Results

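Accessible sites at which cytokine-pulsed fibroblasts given the solvent DMSO stood apart from both other groups were collected from bulk ATAC-seq of Ccd18-Co, a fibroblast line established from human colon. They were chosen by 1 rule on the measured values. With counts scaled to library totals (CPM, the count divided by the library total and multiplied by 1000000), the 18 counts of a peak had to sum to at least 100 and the 6 DMSO values had to lie all above the highest, or all below the lowest, of the other 12 values. This left 82 peaks above (0.0452% of the 181571 peaks with enough counts) and 78 below (0.043%), together 160 of 334857 consensus peaks. At such a peak, cytokine-pulsed cells given DMSO lay outside the range of unstimulated cells and of cells pulsed alike but given belinostat, a histone deacetylase inhibitor. Belinostat libraries need not have returned to the unstimulated level. What follows on DMSO against the other groups therefore describes the choice and is not a test of it.

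The 3 groups had 6 libraries each. Unstimulated cells had no cytokine pulses, and the labels do not say whether they received solvent. Cells of the DMSO and the belinostat group shared the same history of 3 pulses of a cytokine mix, in which TNF, OSM and IL-17A stood at 10 ng/ml each and IL-1β at 0.1 ng/ml. A pulse lasted 72 h and was followed by 96 h of recovery, and 1 week of rest closed the series. They were then given DMSO or 250 nM belinostat for 5 days and were collected 2 weeks later. The doses are those of the labels, while the methods of the study give other concentrations of belinostat and, in places, of IL-1β. All libraries came from 1 line, hence from 1 donor, so that the spread between libraries is that between cultures or preparations of that line. In bulk libraries, a site open in more cells and a site more often open in each cell cannot be told apart.

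ATAC-seq reads out where a transposase can reach DNA. Sites away from gene starts are mostly enhancers, which are held open by transcription factors. In fibroblasts, AP-1 (dimers of JUN and FOS proteins) opens many such sites, and inflammatory cytokines such as TNF and IL-1β activate AP-1 together with NF-κB. TEAD factors work with the coactivators YAP and TAZ downstream of cell tension, and forkhead factors bind closed as well as open chromatin. Histone deacetylases remove acetyl groups from histone tails, and their inhibition raises acetylation.

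Counts in peaks ran from 7077321 to 11352032 in unstimulated, from 6488975 to 8066642 in DMSO and from 4661678 to 6370845 in belinostat libraries. The library unstimulated 6 stood apart, with 11.3% of all peaks at a count of 0 against 1.01% to 4.20% in the rest of its group. The 10000 strongest peaks held 35.4% to 39.0% of the counts in unstimulated, 31.8% to 35.2% in DMSO and 28.4% to 34.5% in belinostat libraries, a share that was highest in unstimulated libraries and overlapped between the other groups. Peaks of 6 fibroblast marker genes (COL1A1, COL1A2, COL3A1, PDGFRB, VIM and FN1) summed to 261 to 281 CPM in unstimulated, 210 to 245 CPM in DMSO and 198 to 254 CPM in belinostat libraries, so that unstimulated libraries lay above both others. Those of 6 leukocyte genes, 5 of them under 1 CPM on average, summed to 9.32 to 13.8, 9.92 to 17.1 and 14.9 to 18.8 CPM in the same order, with belinostat clear of unstimulated. Sums over 6 endothelial genes (3 under 1 CPM) were 9.19 to 15.9 CPM and over 6 epithelial genes (1 under 1 CPM) 39.5 to 54.4 CPM over all libraries. Their part in the results was not tested.

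The sequences shown first are those of 2 upper and 3 lower members with wide gaps between DMSO and the other libraries among members with at least 300 counts, read from hg38 on the plus strand over the central 300 bp of each peak. Capitals mark words of AP-1 or NF-κB in the upper set and of forkhead or TEAD in the lower set, with the letters given further on. The 2 upper sites, in introns of AMPH and LRMDA, held neither an AP-1 nor an NF-κB word in this window. The AMPH window held a forkhead word (GTAAACA), which is left in small letters.

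AMPH intron, chr7:38542283-38542582: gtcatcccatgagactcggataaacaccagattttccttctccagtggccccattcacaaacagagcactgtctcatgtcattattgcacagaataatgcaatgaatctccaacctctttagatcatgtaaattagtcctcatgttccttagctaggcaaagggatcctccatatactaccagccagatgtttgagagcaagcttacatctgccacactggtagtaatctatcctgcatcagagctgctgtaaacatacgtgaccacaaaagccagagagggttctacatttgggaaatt

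LRMDA intron, chr10:75613737-75614036: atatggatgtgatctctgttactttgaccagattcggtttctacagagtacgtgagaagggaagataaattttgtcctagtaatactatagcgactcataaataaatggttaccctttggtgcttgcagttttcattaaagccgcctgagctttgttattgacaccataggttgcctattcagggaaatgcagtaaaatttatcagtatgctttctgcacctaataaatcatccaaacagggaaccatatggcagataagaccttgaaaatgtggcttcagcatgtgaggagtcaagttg

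The lower set comprised an intergenic site whose nearest protein-coding start was that of DICER1, a site in an intron of the non-coding gene LINC02910 and a site in an intron of AKAP6. Each held a TEAD word, and the AKAP6 site held 2 of them and 1 forkhead word.

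Intergenic, nearest start DICER1, chr14:95085327-95085626: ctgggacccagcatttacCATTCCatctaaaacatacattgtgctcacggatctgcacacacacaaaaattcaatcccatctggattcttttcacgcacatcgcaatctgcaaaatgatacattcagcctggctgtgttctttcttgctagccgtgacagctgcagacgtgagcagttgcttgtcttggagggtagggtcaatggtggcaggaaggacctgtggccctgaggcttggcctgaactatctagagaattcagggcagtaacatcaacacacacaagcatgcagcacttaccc

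LINC02910 intron, chr20:60062780-60063079: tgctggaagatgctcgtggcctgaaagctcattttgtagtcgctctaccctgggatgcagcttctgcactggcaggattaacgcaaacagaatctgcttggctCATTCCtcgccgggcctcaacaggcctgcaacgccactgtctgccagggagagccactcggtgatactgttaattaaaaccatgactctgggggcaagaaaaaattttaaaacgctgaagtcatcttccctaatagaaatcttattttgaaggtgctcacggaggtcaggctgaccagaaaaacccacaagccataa

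AKAP6 intron, chr14:32561584-32561883: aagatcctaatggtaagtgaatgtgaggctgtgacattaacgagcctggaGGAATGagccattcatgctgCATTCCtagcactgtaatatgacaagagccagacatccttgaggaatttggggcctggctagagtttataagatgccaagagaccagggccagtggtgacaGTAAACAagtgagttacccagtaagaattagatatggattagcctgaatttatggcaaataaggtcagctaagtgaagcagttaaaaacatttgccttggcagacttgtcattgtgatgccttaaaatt

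A further 4 windows are shown because they are the upper members that held both an AP-1 and an NF-κB word and kept the pattern when counts were scaled in 3 other ways. They were chosen after their values had been seen. In the windows of SLC43A3 and near KCNA2 the NF-κB word followed soon after the AP-1 word, and the window near MPHOSPH6 held 2 adjoining AP-1 words. The window near MPHOSPH6 also held a TEAD word (CATTCC), which is left in small letters.

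KIAA1217 intron, chr10:24383823-24384122: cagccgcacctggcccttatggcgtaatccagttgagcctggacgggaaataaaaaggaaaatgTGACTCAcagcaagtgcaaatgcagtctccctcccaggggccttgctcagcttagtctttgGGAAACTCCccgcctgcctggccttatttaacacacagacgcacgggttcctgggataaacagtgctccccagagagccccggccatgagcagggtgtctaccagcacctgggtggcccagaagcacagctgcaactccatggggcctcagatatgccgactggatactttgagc

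SLC43A3 intron, chr11:57424809-57425108: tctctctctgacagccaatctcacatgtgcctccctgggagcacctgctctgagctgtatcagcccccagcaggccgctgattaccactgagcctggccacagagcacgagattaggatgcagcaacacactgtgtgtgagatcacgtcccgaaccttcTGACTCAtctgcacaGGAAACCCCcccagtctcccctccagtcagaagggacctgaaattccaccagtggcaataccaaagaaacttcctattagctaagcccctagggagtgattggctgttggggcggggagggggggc

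Intergenic, nearest start MPHOSPH6, chr16:82245172-82245471: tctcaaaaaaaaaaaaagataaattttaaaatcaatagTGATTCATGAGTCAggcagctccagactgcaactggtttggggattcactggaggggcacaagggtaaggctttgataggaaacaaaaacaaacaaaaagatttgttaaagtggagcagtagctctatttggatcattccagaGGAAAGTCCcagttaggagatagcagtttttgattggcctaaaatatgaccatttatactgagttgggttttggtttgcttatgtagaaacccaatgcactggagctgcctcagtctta

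Intergenic, nearest start KCNA2, chr1:110634662-110634961: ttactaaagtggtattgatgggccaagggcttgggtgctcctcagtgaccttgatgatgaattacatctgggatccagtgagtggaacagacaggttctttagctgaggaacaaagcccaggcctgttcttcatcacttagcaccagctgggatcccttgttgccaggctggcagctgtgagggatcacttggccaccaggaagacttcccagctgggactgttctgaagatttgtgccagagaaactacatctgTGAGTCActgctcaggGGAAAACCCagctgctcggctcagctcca

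Sites at which DMSO alone stood apart were few beside the same count for the other groups. The same rule was applied with another group in the place of DMSO. The 6 unstimulated libraries lay all above the other 12 at 1609 peaks (0.886%) and all below at 1500 (0.826%). The 6 belinostat libraries lay all above at 514 (0.283%) and all below at 1973 (1.09%). The DMSO counts of 82 and 78 were thus the lowest of the 3 groups in both directions. Those groups differ from DMSO in treatment, so their counts are not what chance would give. The number expected by chance was not determined. Gaps were narrow. The lowest DMSO value exceeded the highest other value by a median of 1.04-fold in the upper members and by at most 1.30-fold, with 63 of 82 under 1.1-fold. Among the lower members the median gap was 1.03-fold, the widest 1.31-fold, and 73 of 78 were under 1.1-fold. At the edge of the rule, an upper member had a lowest DMSO value of 1.6952 CPM against 1.6944 CPM in the next library, and a peak just outside had 1.6952 against 1.6956 CPM. In the lower direction the pair just inside was 9.66954 against 9.66945 CPM and the pair just outside 1.0166 against 1.0169 CPM. Lowering the minimum of the summed count would have added 59 upper peaks with 50 to 99 counts and 18 with fewer, but 1 lower peak.

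**Figure D1:**
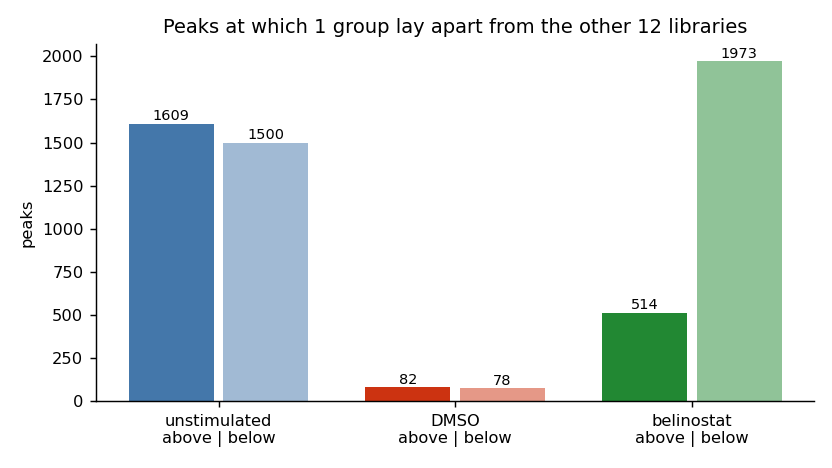
Number of peaks (vertical axis) at which all 6 libraries of 1 group lay above (full colour) or below (pale) the other 12 libraries, for each group. DMSO had 82 and 78 such peaks, the fewest in both directions.

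Which peaks met the rule depended on how the counts were scaled. Scaling by TMM (trimmed mean of M values) over all peaks gave 55 upper and 66 lower peaks, of which 27 and 16 were among the 82 and 78. Loess offsets, fitted per library so that its deviation no longer depended on how strong a peak was, gave 136 and 89, of which 53 and 39 were shared. TMM over the weaker 50% of peaks gave 42 and 33, with 3 and 2 shared. When every library was thinned to the lowest total, 50 and 45 peaks met the rule and 15 and 12 were shared. A random part of the same reads thus picked mostly other peaks. Thinning also lowered the depth, and a second draw at full depth was not made. The pattern held with library totals, TMM over all peaks, TMM over 10 kb bins and loess offsets together in 25 upper and 15 lower members. Leaving out DMSO 5, with which the rule asks less, raised the counts most, to 212 and 222.

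**Figure D2:**
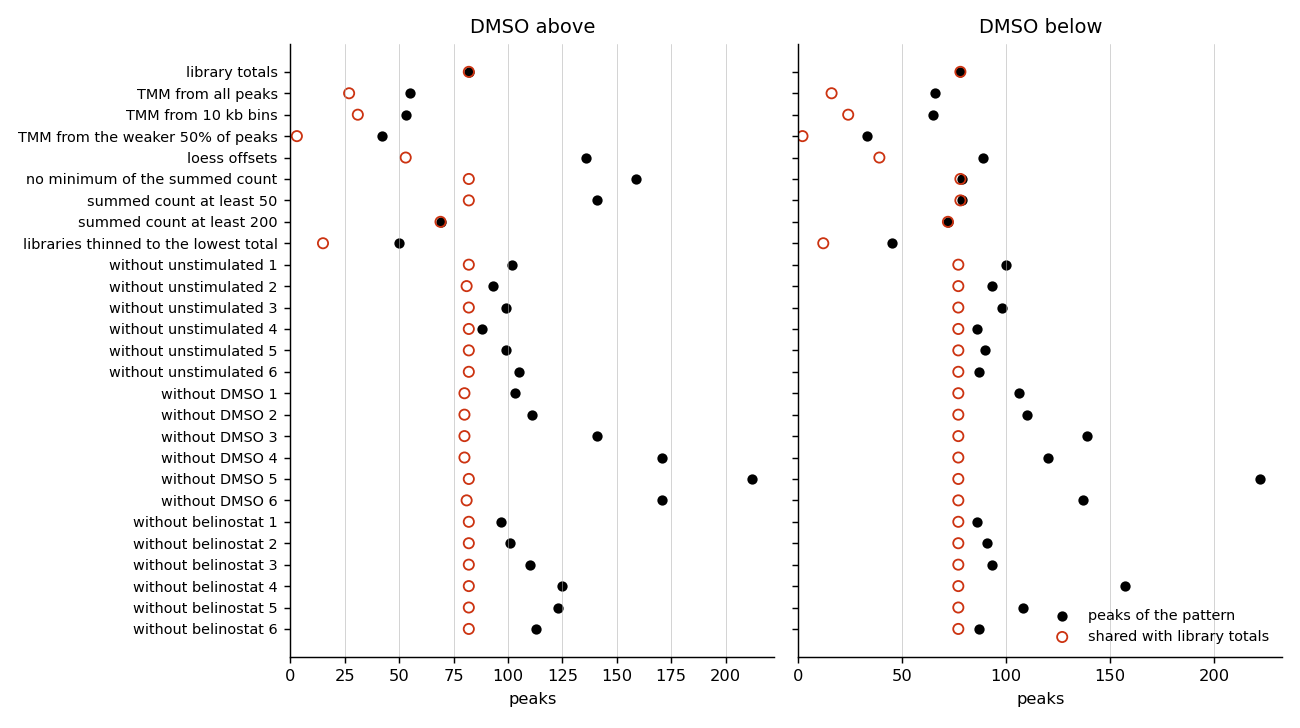
Peaks meeting the rule (filled points, horizontal axis) and those shared with the choice by library totals (open circles) under each setting (vertical axis), for DMSO above and below. Other scalings share between 3 and 53 of the 82 upper peaks. Leaving out a single library only relaxes the rule, apart from the minimum count. That nearly all of them stay and others are added there follows from the rule and is no sign of stability.

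The pattern was also measured in libraries that had no part in the choice. Replicates 1 to 3 of each group chose 5425 upper peaks, at 171 of which (3.15%) the 3 DMSO libraries of replicates 4 to 6 lay above the other 6, against 1.06% of all tested peaks. For the lower direction the share was 151 of 5844 (2.58%) against 1.19%. When replicates 4 to 6 chose, 187 of 2317 upper peaks (8.07%) and 155 of 2074 lower peaks (7.47%) showed the pattern in replicates 1 to 3, against 3.08% and 2.99% of all tested peaks. Over both choices the held-out share was 4.62% above and 3.86% below. The held-out mean of DMSO lay on the chosen side of the mean of the other libraries at 66.6% and 75.1% of upper and at 64.97% and 65.4% of lower peaks, against 49.6%, 53.8%, 50.4% and 46.2% of all tested peaks. In held-out libraries the pattern was thus more frequent at chosen peaks than at all tested peaks, yet present at fewer than 1 in 10 of the chosen ones. The tested peaks were not matched to the chosen ones in strength. Choosing and held-out libraries were also scaled alike, by library totals. The excess therefore cannot show by itself that the pattern repeats, and the part of strength and scaling in it was not tested. The choice of peaks here was looser than the rule, with 3 DMSO libraries against 6 and a summed count of at least 50 in the choosing libraries. Its peaks are not the 160 members, and how often the members would repeat was not measured.

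In the upper members, the median over peaks of the mean CPM was 3.16 without cytokines, 5.25 with DMSO and 3.27 with belinostat. The log2 ratio of DMSO to unstimulated means ran from 0.30 to 2.32 with a median of 0.68, and that of DMSO to belinostat means from 0.33 to 1.71 with a median of 0.70 (0.1 CPM was added to each mean). The lower members had medians of 5.52, 3.68 and 6.13 CPM, with log2 ratios of DMSO to unstimulated from -1.01 to -0.17 (median -0.52) and of DMSO to belinostat from -1.54 to -0.21 (median -0.63).  DMSO 1 and DMSO 2 lay farthest from the other groups, with a median over the upper members of 5.88 and 5.75 CPM against 4.70 to 5.10 CPM in DMSO 3 to 6. Over the lower members DMSO 1 and 2 had medians of 3.20 and 3.32 CPM against 3.43 to 3.96 CPM. Of the belinostat libraries, number 4 came closest to DMSO in both directions, with 3.64 CPM over the upper members (the others 2.74 to 3.37 CPM) and 5.08 CPM over the lower ones (the others 5.602 to 7.14 CPM).

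**Figure D3:**
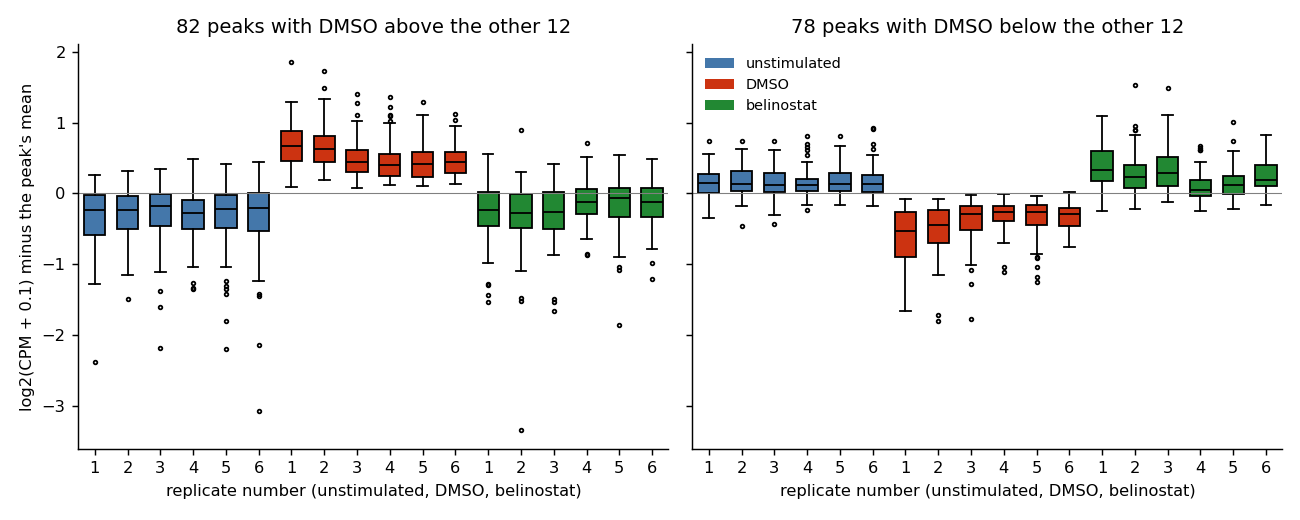
Log2(CPM + 0.1) of each member minus that member's mean over the 18 libraries (vertical axis) in every library (horizontal axis, replicate number, coloured by group), for the 82 upper and 78 lower members. Boxes span the quartiles with the median, whiskers reach 1.5 interquartile ranges, and DMSO 1 and 2 sit farthest from 0.

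With edgeR's quasi-likelihood test fitted on all 334857 peaks and TMM scaling, 41 of the 82 upper members were opened in DMSO against unstimulated libraries at an adjusted p under 0.05 and 0 closed, where 9.51% of all peaks were opened. Against DMSO, 63 were closed by belinostat, where 1.75% of all peaks were. All 78 lower members were closed in DMSO against unstimulated (9.73% of all peaks), and 30 were opened by belinostat (0.607% of all peaks). The shares of all peaks include those too weak to be members. Both contrasts were used by the rule and share the DMSO libraries, and these counts are given only to show that not each member passed a per-peak test: 32 upper and 30 lower members passed in both. The scale also differed, since the rule used library totals. The median log2 fold change of DMSO over unstimulated was 0.48 in upper and -0.74 in lower members with TMM, against CPM ratios of 0.68 and -0.52. The part of the scale in these counts was not tested.

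How far belinostat libraries lay from unstimulated ones was left free by the rule only in part, since both groups had to stay on the same side of DMSO. Calls and p-values for this contrast at members are therefore given as a description of the fit across all peaks. In CPM, the belinostat mean was above the unstimulated mean in 45 and below it in 37 upper members, with a median log2 ratio of belinostat to unstimulated means of 0.04. Among the lower members it was above in 49 and below in 29, and the median was 0.04. The libraries of both groups overlapped in 74 of 82 upper (90.2%) and 74 of 78 lower members (94.9%), near the 91.4% of all tested peaks.

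In edgeR with TMM scaling, 6 upper members were opened and 26 closed in belinostat against unstimulated libraries, and 1 lower member was opened and 20 closed, while 16.8% of all peaks were opened and 13.7% closed. Among the 181571 peaks with enough counts to be members, the same fit opened 11.0% and closed 24.96%. Closed calls, in 31.7% of upper and 25.6% of lower members, thus lay near that share, and opened ones, in 7.32% and 1.28%, under it. The direction of the calls turned with the scaling. With library totals, the scale on which the members were chosen, 15 upper members were opened and 4 closed and 9 lower ones opened and 2 closed, against 30.4% of all peaks opened and 6.31% closed. With loess offsets it was 12 and 2 upper and 15 and 1 lower members, against 4.41% and 4.34% of all peaks. The shares for library totals and for loess offsets include peaks too weak to be members. They are therefore not a like comparison for the members. A TMM fit restricted to peaks with at least 100 counts opened 10 and closed 6 upper members and opened 4 and closed 4 lower ones, against 18.2% and 14.7% of its peaks. Over all peaks, the median log2 fold change in this contrast was 0.50 with library totals and 0.06 with loess offsets. With each of TMM, library totals and loess offsets, 6 upper members (7.32%) and 1 lower member (1.28%) were called opened, against 4.37% of the tested peaks. Called closed with all 3 were 1 upper (1.22%) and 1 lower member (1.28%), against 4.61%, and 39 upper (47.6%) and 44 lower members (56.4%) passed with none, against 51.7%.

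Among upper sites, the widest gap of all was found in an intron of AMPH, which encodes amphiphysin, a protein that bends membranes during endocytosis (chr7:38542135-38542729). Its CPM was 3.16, 3.66 and 4.80 (lowest, median and highest) in the unstimulated group, 6.57, 7.86 and 9.42 in the DMSO group and 3.83, 4.00 and 5.03 in the belinostat group. The 2 outer groups overlapped and DMSO lay clear of both. Means were 3.802 ± 0.696, 7.94 ± 1.15 and 4.25 ± 0.503 CPM (SD, n = 6 each), a log2 ratio of DMSO of 1.04 to unstimulated and 0.89 to belinostat. Belinostat and unstimulated libraries did not differ past the threshold (log2 fold change -0.14 ± 0.18 SE, edgeR adjusted p 0.59).

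LRMDA, a gene named for melanocyte differentiation, held the most upper members of any gene, 3 of its 84 tested peaks. The strongest (chr10:75613619-75614154) had 2.61, 3.08 and 3.72 CPM in unstimulated cells, 7.19, 8.58 and 10.8 under DMSO and 5.15, 5.47 and 6.01 after belinostat. Its neighbour in the same intron (chr10:75612895-75613471) had medians of 2.23, 6.17 and 3.54 CPM and the third (chr10:75487418-75487957) medians of 0.844, 2.65 and 1.81 CPM in the same order. All 3 kept belinostat between the other groups rather than at the unstimulated level. Their log2 fold changes of belinostat over unstimulated were 0.52 ± 0.18, 0.55 ± 0.22 and 0.98 ± 0.30 (SE, edgeR adjusted p 0.0176, 0.0403 and 0.00841), and each was also called opened with library totals and with loess offsets. KALRN, which encodes a guanine nucleotide exchange factor, held 2 upper members of 63 tested peaks (chr3:124206225-124207133 and chr3:124260377-124260993), with medians of 2.08, 4.56 and 1.59 CPM and of 6.74, 9.58 and 5.30 CPM. There, unlike in LRMDA, the belinostat median lay under the unstimulated one. KIAA1217 held 2 of 15, and PALM2AKAP2 held 2 lower members of 82. No other gene held more than 1.

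A peak over an exon of HSD11B1 (chr1:209704523-209704989), the gene of the enzyme that turns cortisone into cortisol, was among the 3 upper members with the most counts. It also lies in the non-coding gene HSD11B1-AS1 on the other strand, and the peak cannot be assigned to either. CPM was 6.25, 7.10 and 9.45 without cytokines, 18.6, 20.0 and 21.6 with DMSO and 13.0, 15.0 and 17.1 with belinostat. The 3 groups did not overlap, and belinostat lay nearer to DMSO than to unstimulated cells, with a log2 fold change over unstimulated of 0.71 ± 0.13 (SE, edgeR adjusted p 1.3e-05), 1.01 with library totals and 1.21 with loess offsets. The remaining upper members opened in this contrast with all 3 scalings lay in intergenic DNA, 57816 bp from the start of TMEM100 (chr17:55674135-55674475, median CPM 0.27, 2.22 and 1.20 in the order of unstimulated, DMSO and belinostat) and 38133 bp from the start of HELT (chr4:184980092-184980622, 0.904, 3.87 and 2.08). The upper member closed with all 3 lay 8309 bp from the start of BLVRA, the gene of biliverdin reductase (chr7:43750162-43750580), where belinostat libraries at 0.979, 1.83 and 2.54 CPM had fallen under the unstimulated ones at 2.198, 2.69 and 3.25 CPM in all but the highest library (log2 fold change -0.92 ± 0.23 SE, edgeR adjusted p 0.00115).

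An intergenic site 84175 bp from the start of IFNGR1, the ligand-binding chain of the interferon-γ receptor (chr6:137303272-137303976), had medians of 1.51, 3.74 and 2.43 CPM in the order of unstimulated, DMSO and belinostat. The peak over an exon of BICC1, an RNA-binding protein (chr10:58817299-58817914), had medians of 2.00, 3.49 and 1.99 CPM, so that belinostat and unstimulated libraries lay level. A peak of KIAA1217 that overlapped an exon of a non-coding gene (chr10:24415588-24416554) had 1.25, 3.71 and 2.48 CPM.

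The other upper members of the 10 named for their gaps had medians in unstimulated, DMSO and belinostat libraries of 2.37, 3.35 and 2.64 CPM over an exon of the non-coding gene MGC27382 (chr1:78229359-78229718), 4.55, 7.27 and 3.91 CPM over an exon of NDRG1, a stress-response gene (chr8:133259333-133260069), 4.60, 6.27 and 4.88 CPM in an intron of the non-coding gene DRAIC (chr15:69808765-69809208) and 3.88, 5.59 and 3.58 CPM at a site inside both PXYLP1 and ZBTB38 (chr3:141341047-141341872). None of these 4 kept the pattern under all of TMM, TMM over bins and loess offsets. The upper member with the most counts, 2097 in all, overlapped an exon of KIT, the receptor of stem cell factor (chr4:54708976-54710106). Its CPM was 13.1, 15.8 and 17.1 in unstimulated cells, 17.4, 18.8 and 21.6 under DMSO and 13.3, 14.2 and 16.4 after belinostat, so that the lowest DMSO library exceeded the highest unstimulated one by 1.02-fold. An intergenic site 105666 bp from the start of SINHCAF, a subunit of a histone deacetylase complex (chr12:31221064-31221721), had medians of 13.0, 20.8 and 15.7 CPM.

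**Figure D4:**
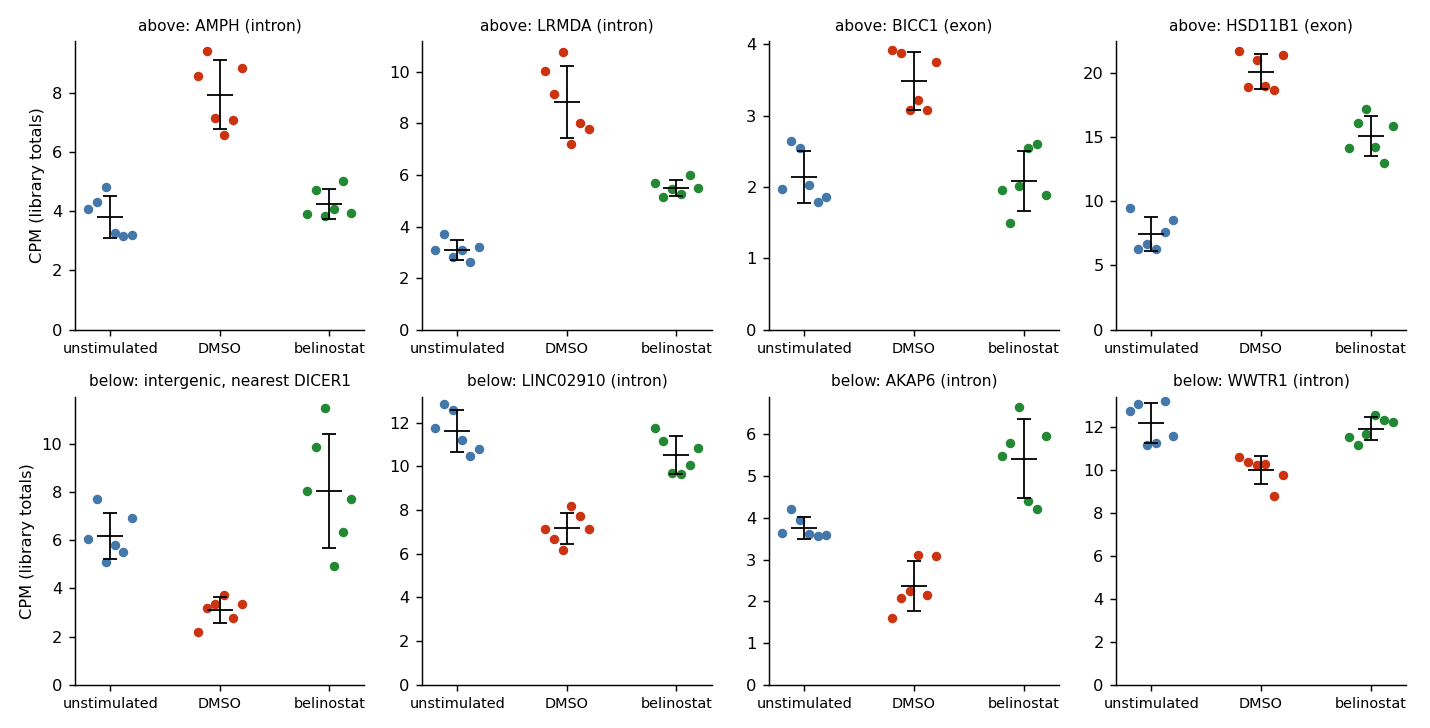
CPM by library totals (vertical axis, from 0) of the 6 libraries of each group (points) with mean and SD (bars) at 4 upper and 4 lower members. Belinostat libraries lie at the unstimulated level at AMPH and between the groups at LRMDA and HSD11B1, and near DICER1 they spread from 4.91 to 11.5 CPM.

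The widest gap of the lower members was at an intergenic site (chr14:95085124-95085828) 72534 bp from the start of DICER1, the gene of the enzyme that cuts microRNA precursors. CPM was 5.09, 5.93 and 7.69 without cytokines, 2.18, 3.27 and 3.72 with DMSO and 4.91, 7.86 and 11.5 with belinostat. DMSO means were lower by a log2 ratio of -0.97 to unstimulated and -1.35 to belinostat. The belinostat libraries spanned and exceeded the unstimulated range, with means of 8.05 ± 2.37 and 6.18 ± 0.963 CPM (SD, n = 6 each), a difference not past the threshold with TMM (log2 fold change 0.06 ± 0.15 SE, edgeR adjusted p 0.81) and past it with both library totals (0.35, adjusted p 0.0417) and the loess scaling (0.43, adjusted p 0.0379). A like order was seen 6380 bp from the start of MINPP1, an inositol phosphate phosphatase (chr10:87498126-87498865), with 5.72, 6.70 and 7.42 CPM in the unstimulated group, 3.05, 4.66 and 5.09 in the DMSO group and 5.59, 9.32 and 13.7 in the belinostat group.

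In an intron of LINC02910 (chr20:60062452-60063406), CPM was 10.4, 11.5 and 12.9 in unstimulated cells, 6.16, 7.11 and 8.18 under DMSO and 9.66, 10.4 and 11.7 after belinostat. Here the outer groups overlapped, with a log2 fold change of -0.45 ± 0.13 with TMM (SE, edgeR adjusted p 0.00588) but 0.01 (adjusted p 0.964) with loess offsets. The site in an intron of AKAP6, which anchors protein kinase A (chr14:32561478-32561988), had 3.57, 3.62 and 4.20 CPM without cytokines, 1.60, 2.199 and 3.10 with DMSO and 4.22, 5.64 and 6.65 with belinostat. There each belinostat library exceeded each unstimulated one, a difference that did not pass with TMM (log2 fold change 0.21 ± 0.17 SE, edgeR adjusted p 0.355) and passed with library totals (0.52, adjusted p 0.0101). In PALM2AKAP2, another kinase anchor gene, 1 of its lower members (chr9:110040727-110041494) had medians of 4.19, 2.79 and 5.38 CPM.

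Medians in unstimulated, DMSO and belinostat libraries were 4.06, 2.55 and 3.68 CPM 2070 bp from the start of ADNP, a chromatin regulator (chr20:50933406-50933609, in the non-coding ADNP-AS1), and 12.9, 9.43 and 12.7 CPM 451803 bp from the start of the T-box factor TBX3 (chr12:115135710-115136246). An intron of PTPRM, a receptor tyrosine phosphatase (chr18:7618971-7619395), had 3.19, 1.56 and 2.48 CPM, an intron of the dynamin gene DNM3 (chr1:172351389-172352229) had 4.67, 2.92 and 3.73 CPM, and an intergenic site 122011 bp from the start of PPP2R2A (chr8:26169145-26169849) had 9.47, 7.10 and 9.08 CPM. None of these 5, nor the site near MINPP1, kept the pattern under all of TMM, TMM over bins and loess offsets. The lower members with the most counts had log2 ratios of DMSO to unstimulated of -0.17, -0.40 and -0.20. They overlapped an exon of ERICH1 (chr8:686620-688156, medians of 54.8, 49.0 and 56.5 CPM), lay in intergenic DNA (chr11:15937532-15938614, 40.3, 31.0 and 35.2 CPM) and lay in an intron of MRC2, a receptor for collagen uptake (chr17:62653054-62654760, 33.4, 28.8 and 34.7 CPM).

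A peak 502 bp from the start of HBB, the β-globin gene (chr11:5229605-5230189), was the lower member opened over unstimulated cells with all 3 scalings. Its CPM was 1.92, 2.35 and 2.66 in the unstimulated group, 1.39, 1.77 and 1.86 in the DMSO group and 3.63, 4.88 and 7.94 in the belinostat group, so that the step from DMSO to unstimulated was much the smaller of the 2. Belinostat exceeded unstimulated libraries by a log2 fold change of 0.82 ± 0.19 (SE, edgeR adjusted p 0.000494). The lower member closed with all 3 lay in an intron of THSD4 (chr15:71634851-71635231), where medians were 3.06, 1.44 and 1.90 CPM and belinostat stayed nearer to DMSO (log2 fold change -0.90 ± 0.22 SE, edgeR adjusted p 0.000771).

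Listed genes of the pathways behind the treatment held 1 upper and 1 lower member, too few to compare with other loci. In the bodies and the 3 kb upstream of 139 genes in 12 lists lay 1326 tested peaks. For comparison, 39 upper and 47 lower members were among the 112689 tested peaks of all protein-coding loci. The upper one overlapped an exon of COL15A1, a basement membrane collagen and marker of universal fibroblasts (chr9:99024975-99025389), with 1.321, 2.13 and 2.40 CPM in unstimulated cells, 2.62, 3.28 and 4.57 under DMSO and 1.76, 2.05 and 2.37 after belinostat. Belinostat and unstimulated libraries lay on top of each other there (log2 fold change -0.31 ± 0.24 SE, edgeR adjusted p 0.32). The lower one lay in an intron of WWTR1, which encodes TAZ (chr3:149610276-149610915), with medians of 12.2, 10.3 and 12.0 CPM. Both peaks met the rule with library totals alone, and under neither TMM, TMM over bins, TMM over the weaker 50%, loess offsets nor thinning. Not 1 member lay in the 69 tested peaks of 5 transcription factors of inflammatory fibroblasts, the 71 of 16 markers of those cells, the 103 of 11 receptors of the cytokine mix, the 53 of 12 NF-κB subunits and inhibitors, the 49 of 11 AP-1 subunits, the 121 of 13 JAK-STAT genes or the 178 of 11 histone deacetylases. The same held for 92 peaks of 8 contractile stroma markers, 219 of 16 collagens and matrix genes and 166 of 20 TGF-β, BMP and WNT genes. Given the background of 0.0452% and 0.043%, lists of this size hold few or no members by their size alone, so a count of 0 says little about a list.

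Members were wider and stronger than most peaks. Upper members had a median width of 574.5 bp and a median summed count of 511.5, lower ones 683.5 bp and 642 counts, against 439 bp and 233 counts in all tested peaks. Medians were 826 bp and 2109 counts where unstimulated alone lay above and 709 bp and 1538 counts where belinostat alone lay below. They were 500.5 bp and 158 counts where unstimulated alone lay below and 503.5 bp and 219 counts where belinostat alone lay above. Width and strength were thus not particular to the members. The upper 2 of 5 equal classes of summed count held 58 of the 82 upper and 61 of the 78 lower members. Within 3 kb of an annotated start lay 9 upper members (11.0%), against 17 lower members (21.8%) and 19.0% of all tested peaks. The share was 11.0% with unstimulated alone below and 27.7% with unstimulated alone above. With belinostat alone below it was 13.1%, and with belinostat alone above 14.8%. By position, 16 upper members overlapped an exon, 36 lay in introns and 30 were intergenic, and among lower members the counts were 16, 37 and 25. They were spread over 20 and 21 chromosomes.

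Sequence was not part of the rule, and the words of several factor families were unevenly shared between the 2 directions. The AP-1 word TGANTCA (both strands, N any base) occurred in the central 300 bp of 39 of 82 upper members (47.6%) and 9 of 78 lower members (11.5%), with 21.5% in all tested peaks. The NF-κB word GGNNTTTCC was in 11 upper (13.4%) and 2 lower members (2.56%), with 5.78% in all. Both occurred together in 7 upper members and no lower one. The forkhead word TGTTTAC went the other way, with 6 upper (7.32%) and 15 lower members (19.2%) and 7.11% in all, and the TEAD word GGAATG was in 18 upper (21.95%) and 25 lower members (32.1%), with 22.2% in all and 30.9% of the 514 peaks at which belinostat alone lay above. These shares are descriptions over peaks and a word is not a bound site.

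Further words were TTGCNNAA of C/EBP in 24.4% of upper and 20.5% of lower members (15.1% of all), CATCTG, an E-box of the TWIST type, in 36.6% and 21.8% (25.3%), TTGGCA of NFI in 15.9% and 24.4% (16.4%), TGTGGT of RUNX in 30.5% and 23.1% (22.03%) and GGGCGG of Sp and KLF factors in 4.88% and 10.3% (15.7%). Where belinostat alone lay below, the C/EBP word was in 23.6% and CATCTG in 41.7% of peaks, so neither was particular to the upper members. The words of STAT (TTCNNNGAA, 8 upper and 5 lower members), IRF (GAAANTGAA, 2 and 2), ETS (CCGGAA, 3 and 5), CTCF (CNAGGNGGC, 4 and 4) and NRF1 (GCGCNTGCG, 0 and 0) were in few members. Some words can share letters, as CCGGAA of ETS can run on into GGAATG of TEAD, and TTCC of NF-κB can open a STAT word.

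**Figure D5:**
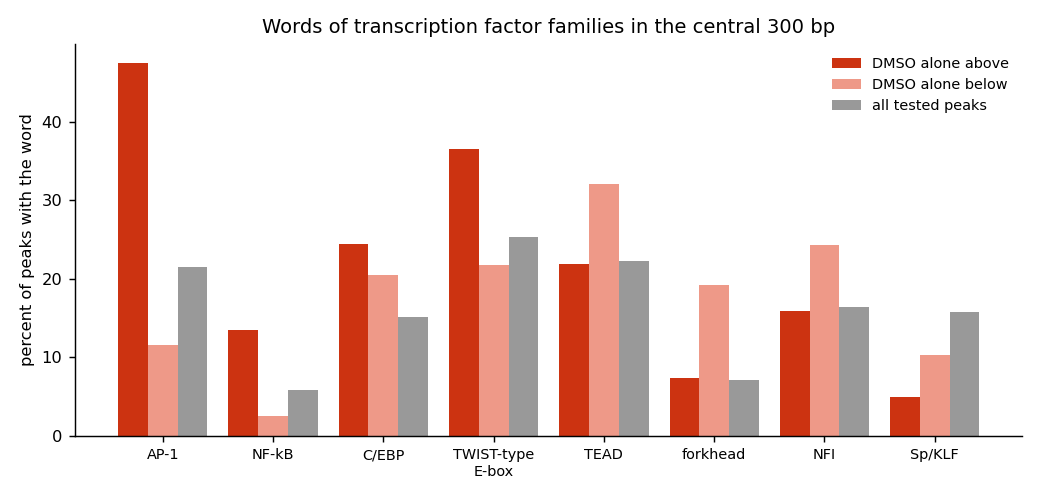
Percent of peaks (vertical axis) with a word of each factor family (horizontal axis) in the central 300 bp, for the 82 upper members, the 78 lower members and all 181571 tested peaks. AP-1 stands at 47.6%, 11.5% and 21.5%, and forkhead at 7.32%, 19.2% and 7.11%.

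The AP-1 word was also counted within 5 equal classes of summed count. In the second highest class, 19 of 38 upper and 0 of 29 lower members had the word, against 25.4% of all peaks of that class, and in the highest class it was 11 of 20 and 5 of 32, against 21.5%. In the middle class, 4 of 12 upper and 3 of 13 lower members had it, against 23.8%. The weaker classes held 3 of 8 and 2 of 4 upper and 1 of 2 and 0 of 2 lower members, too few to compare. Away from starts, 33 of 73 upper and 8 of 61 lower members had it, against 23.8%. Upper members with the word had a median log2 ratio of DMSO to unstimulated of 0.60 and those without 0.75. Of the 25 upper members that kept the pattern under TMM, TMM over bins and loess offsets, 11 had the AP-1 word, and so had 1 of the 15 lower ones, 8 of which had the TEAD word. The share moved with the choice of members, however. With loess offsets AP-1 was in 42.6% of the upper peaks, with TMM over all peaks in 30.9%, and with TMM over the weaker 50% of peaks in 9.52%, under the 12.1% of the lower peaks of that scaling. The other contrasts turned or shrank too. NF-κB was in 8.00% of upper and 13.3% of lower peaks after thinning and in 9.52% and 12.1% with the weaker 50%, and forkhead in 12.0% and 13.3% after thinning. The TEAD word was more frequent in the lower peaks under each of the 5 other settings, by 20.0% against 37.8% after thinning. Among the members this was not so in every class. In the highest class of summed count, 5 of 20 upper and 7 of 32 lower members had the TEAD word, against 20.7% of all peaks of that class. In the second highest class it was 8 of 38 and 10 of 29, and in the middle class 3 of 12 and 7 of 13. Within 3 kb of a start it was 3 of 9 and 3 of 17. The set in which the 6 belinostat libraries lay below the other 12 also held the AP-1 word often, in 34.0% of its 1973 peaks, so the word was not particular to the upper members.

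Around the members, other peaks leaned the same way. Within 10 kb of an upper member lay 139 tested peaks that were no members, and 44.6% of them had a DMSO mean above both other means, against 26.4% of all tested peaks. Around lower members it was 49.7% of 189 peaks with DMSO below both, against 23.8%. Within 100 kb the shares were 34.5% and 31.6%. A second upper member lay within 10 kb of 4 upper members, as with the pair in LRMDA, and no lower member had another so near. Neighbouring peaks share libraries and scaling, so these shares are descriptions without a test.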

How the data were processed

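Bulk ATAC-seq of 18 libraries was used. The authors aligned reads to hg38 with the ENCODE pipeline, removed duplicates, called peaks with MACS2, merged them into 1 consensus set and used csaw to count fragments per peak, so the deposited values are raw counts per peak. Deposited starts count from 0 (the shortest peak measured 150 bp), and starts printed here count from 1. No deposited count column was left unused.

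Groups came from sample titles. The rule was applied to CPM from library totals, and the 3 group contrasts were fitted on all peaks with edgeR 4.0.16 in R 4.3.3 (TMM, glmQLFit and glmQLFTest, legacy method, no covariate), with Benjamini-Hochberg adjustment over all peaks. DESeq2 1.42.0, library totals, loess offsets (limma 3.58.1) and a fit of peaks with at least 100 counts were alternatives. The fit and the rule were tested on simulated data. Replicates of a group differed by more than sampling noise (chi-square per degree of freedom 1.02 to 1.98). Positions were annotated with GENCODE 44.

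Members, gene lists and words were chosen with earlier results of these data known. Named per direction were the 10 members with at least 300 counts and the widest gap, the 3 with the most counts, members in listed genes and genes with the most members, with calls of belinostat against unstimulated under 3 scalings added after values were seen. The values and sequence of 1 of these members are not reported here. Reads outside peaks were not analysed here.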

Additional observations from a re-analysis of the deposited data

Results flagged for a closer look

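In groups of 6 libraries, a library was marked when its distance to the nearest other took an unusual share of the group's range (Dixon's ratio), which chance gives in about 1 of 20 groups. Of 99 groups examined, among named members and library measures, 5 were marked. DMSO 2 was high at the site near IFNGR1 (5.54 CPM), unstimulated 1 was low at the DRAIC intron (3.41 CPM), and DMSO 1 was low at the site near MINPP1 (3.05 CPM). Each of the 3 lay away from the gap that chose the peak. The share of peaks at a count of 0 was high in unstimulated 6 (11.3%) and in belinostat 1 (5.35%).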

How the results depend on the processing

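The number of upper and lower members was 55 and 66 with TMM over all peaks, 53 and 65 with TMM over 10 kb bins, 42 and 33 with TMM over the weaker 50%, 136 and 89 with loess offsets and 50 and 45 after thinning. It was 159 and 79 without a minimum count and 141 and 79 with at least 50. Leaving out 1 library, with which the rule asks less, gave 88 to 212 upper and 86 to 222 lower peaks. Of the 18 such settings, 5 gave more than 1.5 times the main count. These were without DMSO 3 (141 and 139), DMSO 4 (171 and 120), DMSO 5 (212 and 222), DMSO 6 (171 and 137) or belinostat 4 (125 and 157). Why these moved most was not tested.

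Calls of belinostat against unstimulated, 32 upper and 21 lower with TMM, were 19 and 11 with library totals, 14 and 16 with loess offsets, 16 and 8 over peaks with at least 100 counts and 24 and 9 with DESeq2 (6 opened and 18 closed upper, 1 and 8 lower, against 12.4% and 10.1% of all peaks). Leaving out 1 library gave 26 to 32 and 10 to 29, with 13 lower calls without unstimulated 6, 12 without belinostat 4 and 10 without belinostat 5. The replicate block gave 34 and 23 (6 opened and 28 closed upper, 1 and 22 lower, against 16.2% and 13.8% of all peaks, weak ones included). Same-numbered libraries had correlated deviations of -0.17 to 0.15, so the numbers were not taken as pairs. Choosing by odd and even numbers moved the held-out share to 5.81% above and 6.36% below. Word shares under other scalings were added after the data were seen: AP-1 above ranged from 9.52% to 42.6%, NF-κB above from 8.00% to 15.1%, forkhead below from 6.06% to 16.9% and TEAD below from 27.3% to 46.2%, and the AP-1, NF-κB and forkhead contrasts between directions shrank or turned in some of them. The causes were not tested. Narrow gaps at these depths limit which peaks can be told from their neighbours in rank.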

Other observations

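Further members lay in genes of known function and are given as values, chosen after these had been seen. Among upper members, an intron of CXCL13, a chemokine that attracts B cells (chr4:77526677-77527673), had medians of 8.65, 11.9 and 7.34 CPM in the order of unstimulated, DMSO and belinostat. An exon shared by the loci of FADS1 and FADS2, desaturases of fatty acids (chr11:61800527-61801098), had 4.24, 5.35 and 3.18 CPM, and an intron of DGAT2, which forms triglycerides (chr11:75771511-75772179), had 11.2, 14.2 and 8.90 CPM. A site in P4HA2, a collagen prolyl hydroxylase (chr5:132263858-132264281), which also lies in the locus of PDLIM4, had 10.9, 13.3 and 8.84 CPM. At these 4 sites the belinostat median was the lowest of the 3, and none kept the pattern under all of TMM, TMM over bins and loess offsets.

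Among lower members, an exon of ITGA2, a collagen-binding integrin chain (chr5:53071411-53072182), had medians of 4.94, 4.02 and 5.04 CPM, and the promoter of TES, a focal adhesion protein (chr7:116210257-116211696), had 11.0, 8.57 and 10.9 CPM. Introns of ROBO2, a receptor of SLIT guidance proteins (chr3:76873659-76874415), and of MTA3, a subunit of the NuRD deacetylase complex (chr2:42556102-42556904), had 7.56, 3.67 and 7.54 CPM and 7.22, 4.77 and 7.79 CPM. Here the belinostat and unstimulated medians lay near each other. The intron of LIMCH1, an activator of non-muscle myosin (chr4:41381225-41381699), had 1.86, 1.35 and 2.28 CPM and kept the pattern under the 3 other scalings.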
